A study of Saccharomyces cerevisiae with 50 samples.

Results

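The comparison set the passage from G1 into S phase of the second cell cycle against the same passage of the first cycle in budding yeast of the laboratory strain W303. Cells had been arrested with alpha factor, released into YEPD, and sampled every 5 min. The first window held the samples taken 15, 20 and 25 min after release, and the second window those taken 65 min later, at 80, 85 and 90 min. These 6 time points were chosen by their time labels from the 25 of the series, and their 12 arrays from its 50. Both windows came from a single arrest and release of 1 strain, so the first window followed the arrest directly and the second followed a full cycle in YEPD. Each sample was hybridised on 2 arrays with the dyes exchanged, against RNA of an unsynchronised culture of yeast grown overnight in YEPD. The labels call these dye swaps technical repeats, so each pair was averaged into 1 value per time point. The labels give no replicate culture, so neighbouring time points, 5 min apart in 1 course, served as the replicates of a window. The p-values reflect how far such neighbours varied, which is not variation between cultures.

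Alpha factor is the mating pheromone of MATalpha cells and holds MATa cells in G1 before they commit to division. In a cycling culture genes of cell separation and early G1 are switched on as cells leave mitosis, some of them in the daughter cell alone. The factors SBF and MBF then switch on G1 cyclin, DNA replication and repair genes at the G1 to S transition, and histone genes follow in S phase. Cells released from pheromone enter the first of these passages without having just divided, while cells in the second passage have come through mitosis.

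The deposited values are log ratios of the dyes, whose base and direction are not given in the sources used here. They were read as log10 because they end exactly at -2 and 2. The arrays of each pair correlated negatively as deposited, which shows that the ratio follows the dyes but not which dye is the numerator. It was read as Cy5 over Cy3, the usual form, under which the pheromone response genes, known to be induced by alpha factor, had a mean level of 2.84 log2 units in the arrested cells at 0 min. This direction is likely rather than stated, and every higher and lower below turns if it is wrong. Levels are given as log2 of sample over reference. On the 12 arrays the 2 members of a pair correlated across genes with r between 0.385 and 0.638 after turning, and between 0.488 and 0.812 without values at the limit. Array medians lay between -0.04 and 0.03. The number of arrays limits the precision. The title dates of the arrays differed between the windows in both dye orientations, so date and cycle cannot be told apart within the windows. In bulk RNA, fewer cells in a state and less RNA per cell cannot be told apart either.

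Of 6204 open reading frames, 214 were higher in the second window, a background share of 3.45%, and 309 were lower, a share of 4.98%, at an adjusted p of 0.05 in limma. All 523 had levels that did not overlap between the windows and the same sign in each dye orientation alone. Over all frames, 17.4% lay wholly higher and 17.3% wholly lower in the second window. An exact permutation of 3 against 3 time points cannot give a two-sided p below 0.1, so such gaps are given as descriptions only. The counts depended on 4 of the time points: they were 21 higher and 22 lower without 20 min, 21 and 22 without 85 min, 45 and 71 without 80 min, and 55 and 54 without 90 min. They were 172 and 272 without 15 min and 261 and 377 without 25 min. All 523 kept their sign when any 1 time point was left out, which was fixed in advance because none overlapped. Of these, 36 stayed past the threshold each time.

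Most of the called differences ran toward the level of the unsynchronised culture. Of the 523 genes, 436 lay closer to the reference in the second window than in the first. The same share over all frames was not computed. Levels of all genes spread more widely in the first window, so these counts cannot be read as particular to the called genes. Among the 214 higher genes, 208 had been below the reference in the first window, and the median level went from -0.37 to 0.10. Among the 309 lower genes, 297 had been above the reference, and the median level went from 0.65 to 0.10. The spread of levels across genes (SD) was 0.55, 0.47 and 0.44 at 15, 20 and 25 min and 0.37, 0.34 and 0.33 at 80, 85 and 90 min. A mean level at least 1 log2 unit from the reference was found for 247 genes in the first window and 58 in the second. The median size of the difference among the 523 was 0.53 log2 units, and 67 differed by at least 1, of which 28 were higher and 39 lower. The window means correlated across genes with r = 0.605, a description over genes, which are not independent.

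**Figure D1:**
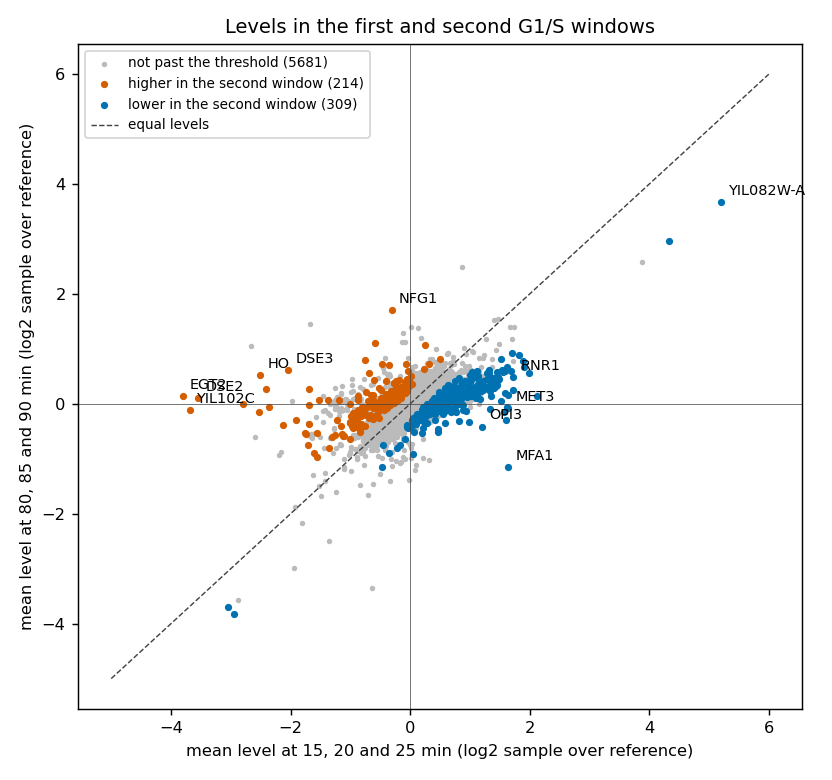
Mean level of each of 6204 open reading frames in the first window (x axis, 15, 20 and 25 min) and in the second (y axis, 80, 85 and 90 min), both as log2 of sample over reference. Orange points are the 214 genes higher and blue points the 309 genes lower in the second window by limma, grey points the others, and the dashed line marks equal levels. The orange points lie mostly left of 0 and the blue points mostly right of 0 on the x axis, and both lie near 0 on the y axis.

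Between 55 and 60 min, outside the windows, the arrays with the sample in Cy3 changed title date and those with the sample in Cy5 did not. The step of the Cy3 arrays less that of the Cy5 arrays had a median size of 0.15 log2 units over all genes but a root mean square of 0.84, so that some genes had far larger steps. Its part in the differences between windows was not tested. In limma 0 genes passed a test of whether the difference between windows depended on dye orientation, with 504 at an unadjusted p under 0.05. The test could miss a large dependence, so it does not show that there was none. For the frame YIL102C the difference was 6.28 on the Cy3 and 0.87 on the Cy5 arrays, with a limma adjusted p of 0.238.

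Genes of cell separation and early G1 had the largest differences, and all of those that passed were higher in the second window. Of 19 such genes measured, 14 were higher and 0 lower, with a median difference of 1.67 log2 units against 0.01 over all genes. The mean level of the list was -1.57, -1.72 and -1.89 at 15, 20 and 25 min and 0.37, 0.05 and -0.22 at 80, 85 and 90 min. The count was 9 without 20 min and 9 without 85 min.

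EGT2, a cell wall glucanase that acts in the separation of mother and daughter, had levels of -3.83, -3.83 and -3.76 at 15, 20 and 25 min and of 0.66, 0.05 and -0.30 at 80, 85 and 90 min. All first-window values lay more than 3 units below all second-window values. The difference was 3.94 ± 0.22 log2 units (SE, n = 3 against 3 time points), or 15.4-fold, with an adjusted p = 0.00103 in limma. DSE2, a secreted protein that degrades the cell wall from the daughter side, stood at -3.23, -3.83 and -3.58 and then at 0.25, -0.03 and 0.08. The windows were again far apart, with a difference of 3.65 ± 0.16 log2 units or 12.5-fold (limma adjusted p = 3.65e-04). HO, the endonuclease that starts mating-type switching and is transcribed in mother cells, had levels of -2.25, -2.50 and -2.77 and then of 1.02, 0.61 and -0.05. It was above the reference at 80 and 85 min and lower at each later time point of the second window, and the mean difference was 3.03 ± 0.27 log2 units or 8.19-fold (limma adjusted p = 0.00293).

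DSE4, an endoglucanase of cell separation, went from -2.95, -2.70 and -2.71 to 0.47, -0.02 and -0.46, a difference of 2.79 ± 0.22 log2 units (limma adjusted p = 0.00209). DSE1, a daughter-specific protein, had the smallest adjusted p of all genes tested, 1.26e-04, with levels of -2.28, -2.52 and -2.44 and then of 0.32, 0.35 and 0.16. Its difference was 2.69 ± 0.09 log2 units. DSE3 differed by 2.65 ± 0.24 and SCW11, a cell wall protein related to glucanases, by 2.38 ± 0.15 log2 units. AMN1, a daughter-cell inhibitor of the mitotic exit network, differed by 2.30 ± 0.15, and PRY3, a cell wall protein of the daughter, by 1.97 ± 0.13 log2 units. None of these 6 genes overlapped between the windows, and each was below -1.5 throughout the first.

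The other called members of the list were the cyclin gene PCL9 (1.67 ± 0.33 log2 units), the bud neck gene NIS1 (1.60 ± 0.23), the cell wall gene PIR1 (1.25 ± 0.26), RME1, a repressor of meiosis (1.34 ± 0.27), and SIC1, the inhibitor of S phase cyclin-dependent kinase (0.80 ± 0.18, adjusted p = 0.0439). SIC1 had levels of -0.91, -0.89 and -1.06 and then of 0.22, -0.18 and -0.52. Its lowest value in the second window was still above all of the first. ASH1, the repressor of HO in daughter cells, was not past the threshold. Its levels of -0.61, -1.30 and -1.69 and then of 0.48, -0.18 and -0.69 overlapped, and its difference was 1.07 ± 0.36 log2 units (limma adjusted p = 0.115). PIR3, another cell wall gene, differed the other way, by -0.70 ± 0.20 log2 units (adjusted p = 0.0761). CTS1, the chitinase of cell separation, and CYK3, a cytokinesis gene, had differences of -0.07 and 0.07. Over all 25 time points CTS1 lay between -0.23 and 0.26 and CYK3 between -0.17 and 0.54. Values this flat over the whole course cannot show that the 2 windows were equal. BUD9, a marker of bud sites, had a difference of 1.61 ± 0.81 log2 units that rested on a value of -3.56 at 25 min, where 1 array was at the limit.

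**Figure D2:**
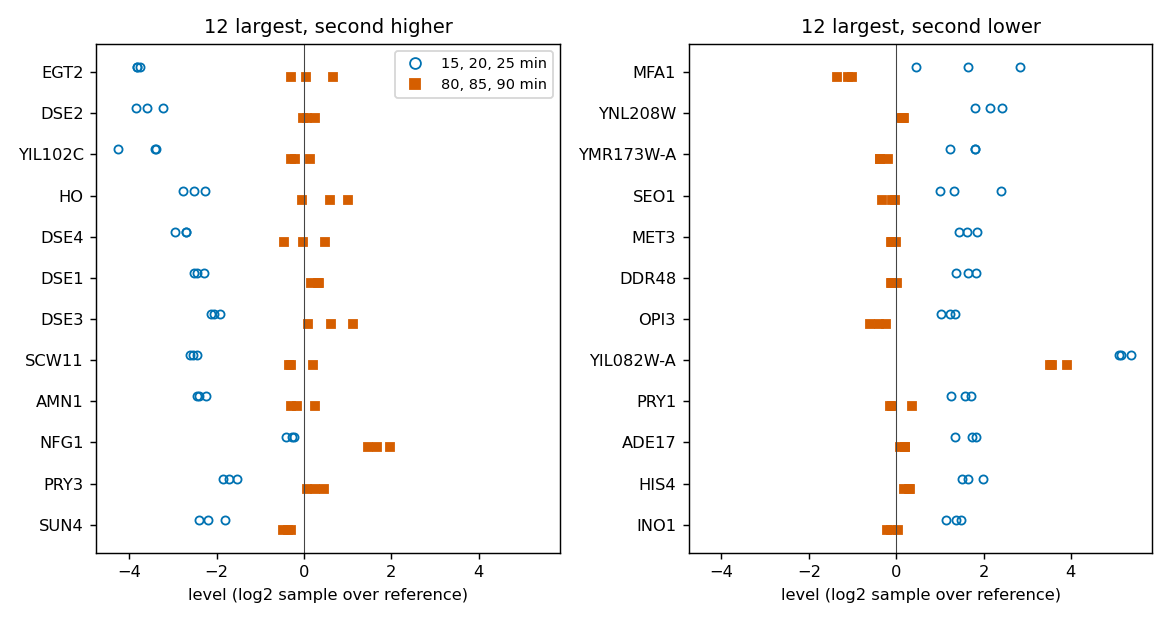
Levels (x axis, log2 of sample over reference) of the 12 genes with the largest differences in each direction, 1 point for each time point, as circles for 15, 20 and 25 min and squares for 80, 85 and 90 min. No gene has overlapping circles and squares. The genes higher in the second window start between -4.27 and -0.23 in the first.

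Genes of the CLB2 cluster, which are transcribed in G2 and mitosis, had a list mean of -0.92, -0.92 and -1.04 in the first window and of -0.35, -0.52 and -0.52 in the second. Of 17 measured, 9 were higher and 0 lower, with a median difference of 0.44 log2 units. The count was 1 without 20 min, 2 without 85 min, 4 without 80 min or without 90 min, and 4 with arrays quantile-normalized, which gives all arrays the same spread of values. CLB2, the main mitotic cyclin gene, stood at -1.26, -1.31 and -1.18 and then at -0.57, -0.68 and -0.43. Both windows were narrow and apart, and the difference was 0.69 ± 0.09 log2 units or 1.61-fold (limma adjusted p = 0.0111). CDC5, the polo kinase of mitosis, went from -1.36, -1.37 and -1.22 to -0.58, -0.66 and -0.54, a difference of 0.72 ± 0.07. CHS2, the chitin synthase of the primary septum, went from -1.83, -1.70 and -1.62 to -0.46, -0.90 and -0.91, a difference of 0.96 ± 0.14. BUD4, which marks the axial bud site, differed by 1.02 ± 0.18 log2 units, and HST3, a histone deacetylase, by 0.93 ± 0.15. Also higher were CLB1, the scaffold gene of the contractile ring IQG1, the kinase gene ALK1, and SWI5, a transcription factor gene (0.37 ± 0.09, adjusted p = 0.0494).

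Most G1/S regulators and SBF targets did not pass the test, unlike many replication and repair genes of the same transition given below. That contrast was not tested itself, and with quantile-normalized arrays 2 of 21 replication and 1 of 14 cohesion and repair genes passed. Of the 22 regulators and targets, 1 was lower and 0 higher. Differences were positive for 8 and negative for 14, from -0.79 to 0.98 log2 units, with 2 genes wholly higher and 3 wholly lower. The median difference of -0.08 log2 units was 0.10 with quantile-normalized arrays. The list mean was 0.55, 0.91 and 0.74 in the first window and 0.66, 0.62 and 0.56 in the second. CLN2, a G1 cyclin gene, had levels of 0.87, 1.17 and 0.72 and then of 0.63, 0.77 and 0.67. These overlapped, and the difference was -0.23 ± 0.12 log2 units (limma adjusted p = 0.274). CLN1, the other main G1 cyclin gene of this transition, differed by -0.10 ± 0.18, and WHI5, the inhibitor of SBF, by -0.01 ± 0.16 log2 units. The member that passed was PCL1, a cyclin of the Pho85 kinase, at 1.98, 1.89 and 1.26 and then 0.98, 0.85 and 0.93. Its difference of -0.79 ± 0.19 log2 units had an adjusted p = 0.0493, and it was not past the threshold without 15, 20, 80, 85 or 90 min, with either dye alone or with quantile-normalized arrays. SWI4, the DNA-binding subunit of SBF, went from 1.17, 1.28 and 0.84 to 0.61, 0.53 and 0.14. Its windows did not overlap, but the adjusted p was 0.0523.

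**Figure D3:**
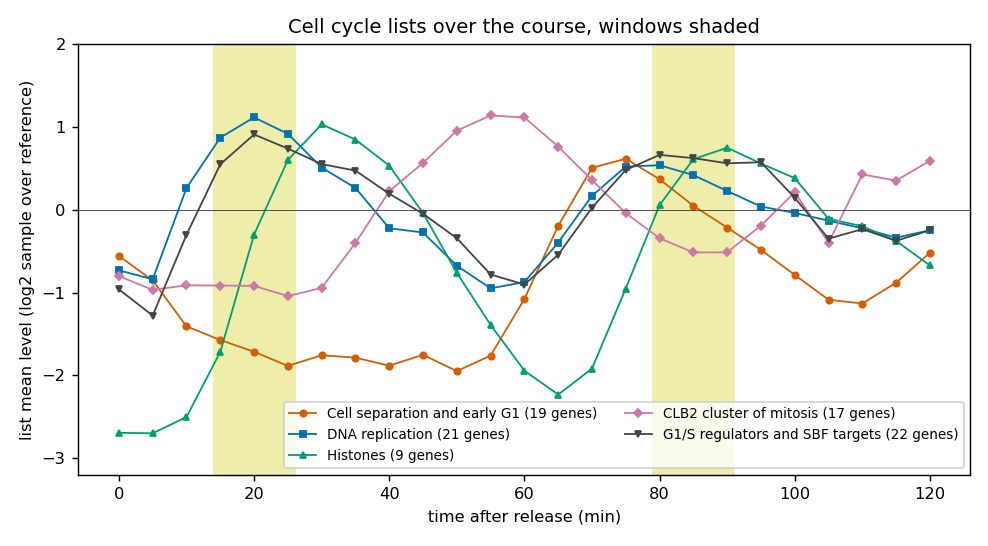
Mean level of 5 lists of cell cycle genes (y axis, log2 of sample over reference) at each of 25 time points (x axis, min after release), with both windows shaded. Genes of cell separation and early G1 lie below -1.5 in the first window and between -0.22 and 0.37 in the second, and the mean of DNA replication genes lies higher in the first window than in the second.

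The list mean of DNA replication genes was above the reference in both windows and lower in the second. Of 21 measured, 11 were lower and 0 higher, with a median difference of -0.58 log2 units. All 21 had a negative difference, except that POL2 and RFA2 turned positive with quantile-normalized arrays, where the median was -0.32 and 2 genes, POL30 and CDC9, were past the threshold. The count was 0 without 20 min, 0 without 85 min, 4 without 80 min, 2 without 90 min, and 2 with the Cy3 arrays only. The list mean was 0.87, 1.11 and 0.92 in the first window and 0.54, 0.42 and 0.23 in the second.

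RNR1, the large subunit of ribonucleotide reductase, which makes the precursors of DNA, stood at 1.72, 1.99 and 1.46 and then at 0.82, 0.44 and 0.20. The second window lay wholly below the first, with its lowest value at 90 min, and the difference was -1.24 ± 0.19 log2 units, 2.36-fold lower (limma adjusted p = 0.0189). POL30, the sliding clamp of the polymerases, went from 1.22, 1.47 and 1.27 to 0.48, 0.33 and -0.02, a difference of -1.05 ± 0.14. PRI2, a primase subunit, went from 1.39, 1.54 and 1.16 to 0.69, 0.41 and 0.13, a difference of -0.95 ± 0.16. CDC45, a part of the replicative helicase, differed by -0.93 ± 0.18, the polymerase alpha subunit genes POL1 and POL12 by -0.87 ± 0.19 and -0.78 ± 0.16, and the thymidylate synthase gene CDC21 by -0.69 ± 0.12 log2 units. The ligase gene CDC9, the polymerase epsilon subunit gene DPB2, the flap endonuclease gene RAD27 and the S phase cyclin gene CLB5 were also lower. CLB5 had the smallest difference of those called, from 0.27, 0.28 and 0.29 to -0.05, 0.04 and -0.01. CLB6, the other S phase cyclin gene, went from 1.97, 1.99 and 1.22 to 1.23, 0.81 and 0.32. Its windows overlapped by a narrow margin, and the difference of -0.94 ± 0.29 log2 units had an adjusted p = 0.0916. At the other end, the dUTPase gene DUT1, the primase gene PRI1, RFA3 and RFC4 differed by -0.10 to -0.18 log2 units and were not past the threshold.

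Most genes of sister chromatid cohesion and DNA repair that were measured passed as lower in the second window. Of 14 measured, 10 were lower and 0 higher, with a median difference of -0.72 log2 units, and all 14 differences were negative, against 12 with quantile-normalized arrays, where PDS1 was among those that turned positive. Under that normalization 1 gene, RAD53, was past the threshold, and the median was -0.36. The count was 0 without 20 min, 0 without 85 min, 5 without 80 min, 1 without 90 min, and 3 with the Cy3 arrays only. The cohesin gene MCD1 stood at 1.59, 1.84 and 1.32 and then at 0.98, 0.60 and 0.21. The second window lay wholly below the first, by -0.99 ± 0.21 log2 units (limma adjusted p = 0.0395). PDS5, which maintains cohesion, went from 1.36, 1.59 and 1.41 to 0.60, 0.62 and 0.10, a difference of -1.02 ± 0.15. RAD53, the checkpoint kinase, went from 1.07, 1.17 and 0.80 to 0.31, 0.18 and -0.06, a difference of -0.87 ± 0.13. The cohesin genes SMC1, SMC3 and IRR1 differed by -0.82, -0.79 and -0.73, and the mismatch repair genes MSH6 and PMS1 by -0.74 and -0.57 log2 units. CTF18, of an alternative clamp loader, was also lower. RAD54, PDS1 and ECO1 had overlapping levels.

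Histone genes had large differences in the mean that did not pass, and their levels differed widely inside the first window. All 9 measured genes had a positive difference, with a median of 1.01 log2 units, 0 passed in limma, and the levels of all 9 overlapped between the windows. HTA1, a histone H2A gene, stood at -2.20, -0.55 and 0.43 and then at -0.01, 0.59 and 0.81. It was lowest at 15 min by far, while its value at 25 min lay within the second window, and the difference was 1.23 ± 0.62 log2 units (limma adjusted p = 0.256). The change from 15 to 25 min had a median of 2.55 log2 units over the 9 genes, and that from 80 to 90 min a median of 0.69. The change per minute differed between the windows at an unadjusted p under 0.05 for all 9. After adjustment limma passed 0 of the 6204 frames, a background of 0%, with 781 at an unadjusted p under 0.05 and a smallest adjusted p of 0.0682. That test was added after the data were seen. Copies of each histone gene are near-identical, so the array may not tell them apart. The linker histone gene HHO1 had the smallest difference, 0.25 ± 0.31 log2 units, and turned negative with the second window taken 60 min after the first (-0.14, adjusted p = 0.845) and without 15 min (-0.11, adjusted p = 0.674).

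The median of the histone list depended on which time points entered. It was 0.40 log2 units with the second window 60 min after the first and 1.18 with it 70 min after, and ranged from 0.37 without 15 min to 1.62 without 25 min. Genes of origin licensing, which load the replicative helicase in late mitosis and G1, ran the other way inside the windows. Their list mean was 0.43, -0.00 and -0.52 in the first window and 0.04, -0.30 and -0.53 in the second. Of 9 measured, 0 were higher and 0 lower in limma, and all overlapped. MCM5, a helicase subunit, went from 0.996 through 0.31 to -0.47 and then from 0.26 through -0.22 to -0.65. Its level at the end of each window was below that at the start, by -1.47 and -0.91 log2 units, and the difference in mean was -0.48 ± 0.39 (adjusted p = 0.458). The list means at 25 min and at 90 min were 0.60 and 0.75 for histones and -0.52 and -0.53 for licensing genes.

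**Figure D4:**
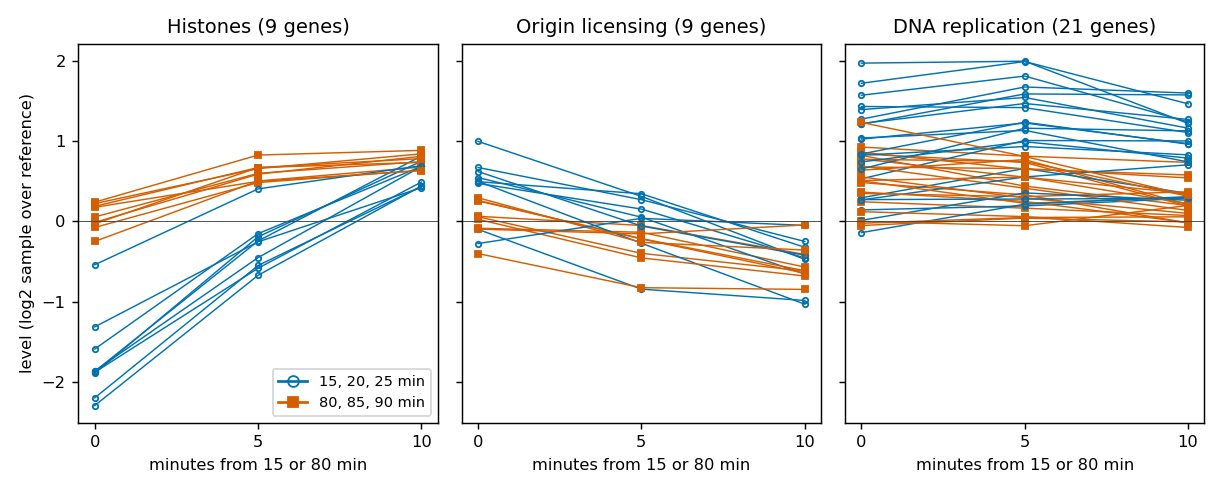
Levels (y axis, log2 of sample over reference) of single genes of 3 lists at 0, 5 and 10 min from the start of each window (x axis), with circles for the first window and squares for the second. Histone genes start between -2.30 and -0.54 in the first window and between -0.25 and 0.24 in the second, and all lie between 0.42 and 0.88 at 10 min, whereas most DNA replication genes stay lower in the second window throughout.

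The pheromone response list was split. Of 22 genes measured, 5 were lower and 3 higher, and the median difference was -0.16 log2 units. Without 20 min or without 85 min none of the 8 was past the threshold, without 80 min 1 was lower and 1 higher, and without 90 min 0 and 2. The lower genes act at the cell surface and in fusion. AGA1, the anchor of the a-agglutinin, stood at 2.31, 1.36 and 1.08 and then at 0.42, 0.11 and 0.05. Its first-window values were spread over more than 1 log2 unit, all above the second window, and the difference was -1.39 ± 0.30 log2 units (limma adjusted p = 0.0405). FIG1, which acts in calcium influx during mating, went from 2.46, 1.63 and 1.57 to 0.998, 0.73 and 0.64. It stayed above the reference at 90 min, with a difference of -1.10 ± 0.24. PRM1, of plasma membrane fusion, differed by -0.95 ± 0.16, the mating adhesin gene FIG2 by -0.83 ± 0.15 and the fusion gene FUS2 by -0.58 ± 0.11 log2 units.

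The 3 higher genes encode parts of the signalling pathway, which does not hold for all genes of that pathway. GPA1, another of its genes, stood at 0.02, -0.55 and -1.49 and then at -0.35, -0.74 and -1.05, and its windows overlapped. KSS1, a mitogen-activated protein kinase, stood at -0.20, -0.26 and -0.20 and then at 0.29, 0.34 and 0.30. It was flat inside each window, with a difference of 0.53 ± 0.06 log2 units (limma adjusted p = 0.00877). FUS3, the related kinase of the mating response, went from -0.88, -0.82 and -0.82 to -0.41, -0.51 and -0.43, a difference of 0.39 ± 0.06. STE12, the transcription factor of the response, went from -0.96, -0.77 and -0.72 to -0.09, -0.21 and -0.34, a difference of 0.60 ± 0.10. FAR1, the cyclin-dependent kinase inhibitor of the arrest, had levels of -1.40, -1.56 and -2.06 and then of -0.05, -0.69 and -1.03. They did not overlap, and the difference of 1.08 ± 0.27 log2 units had an adjusted p = 0.0578.

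Among 7 genes specific to MATa cells, MFA1 was lower and 0 were higher. MFA1, which encodes the a-factor pheromone, stood at 2.84, 1.64 and 0.45 and then at -1.01, -1.10 and -1.36. It was highest at 15 min and lay below the reference in all of the second. The difference was -2.80 ± 0.54 log2 units, 6.95-fold lower (limma adjusted p = 0.0325), and it was not past the threshold without 20, 80, 85 or 90 min. AGA2, the binding subunit of the agglutinin, went from 2.53, 1.18 and 0.32 to 0.45, 0.20 and -0.12, a difference of -1.17 ± 0.51 (adjusted p = 0.200). The receptor gene STE2, the a-factor exporter gene STE6 and the second a-factor gene MFA2 differed by -0.08, -0.08 and 0.21 log2 units. BAR1 went the other way, from -0.90, -1.40 and -1.71 to -0.16, -0.59 and -1.11. Its levels overlapped, and its difference of 0.72 log2 units was the largest positive one of the list. Of the 7 genes, 2 had a positive and 5 a negative difference. The means of the MATa list were 0.68, -0.08 and -0.75 and then -0.32, -0.62 and -0.91. Of 4 genes specific to MATalpha cells and 14 meiosis genes, 0 were higher or lower in limma. Their list means lay between -0.99 and 0.12, where the lowest came from MF(ALPHA)1 at 20 min, with 1 array at the limit. Ratios to a reference culture cannot show that a gene was absent.

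Some genes of sulfate assimilation and methionine synthesis were lower in the second window. Of 16 measured, 5 passed as lower and 0 higher, with a median difference of -0.54 log2 units, and all 16 differences were negative except that MET2 turned positive with quantile-normalized arrays. The count was 1 without 20 min or 85 min, 3 without 80 min and 2 without 90 min. MET3, the ATP sulfurylase that starts the pathway, stood at 1.86, 1.63 and 1.44 and then at -0.01, -0.13 and -0.09. It was near the reference throughout the second window, with a difference of -1.72 ± 0.11 log2 units, 3.29-fold lower (limma adjusted p = 0.00114). The sulfite reductase genes MET5 and MET10 went from 1.60, 1.12 and 0.79 to 0.16, -0.06 and 0.14, and from 1.49, 1.33 and 1.11 to 0.61, 0.36 and 0.41. Their differences were -1.09 ± 0.20 and -0.85 ± 0.12. MET17, which joins sulfide to the carbon skeleton, differed by -0.77 ± 0.09, and MET16, the PAPS reductase, by -0.53 ± 0.11 log2 units. The sulfate permease gene SUL1 had levels of 1.89, 0.71 and 0.41 and then of -0.06, -0.13 and 0.02. They did not overlap, but the spread inside the first window was wide and the adjusted p was 0.112.

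In the list of arginine and other amino acid synthesis genes, 6 of 20 were lower and 0 higher, with a median difference of -0.30 log2 units. The count was 1 without 20 min or 85 min and 2 without 80 min or 90 min. HIS4, an enzyme of several steps of histidine synthesis, stood at 1.99, 1.65 and 1.51 and then at 0.29, 0.17 and 0.32. The windows were more than 1 log2 unit apart, and the difference was -1.45 ± 0.13, 2.74-fold lower (limma adjusted p = 0.00292). ARG1, the argininosuccinate synthetase, went from 1.98, 1.87 and 1.62 to 0.81, 0.96 and 0.92, a difference of -0.92 ± 0.11. It remained above the reference in the second window. ARG5,6, HIS5, LYS1 and ILV2 were the others, with differences of -0.72, -0.68, -0.44 and -0.34 log2 units. LEU4 and LYS9, in contrast, had differences of 0.09 and 0.07 and were not past the threshold.

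**Figure D5:**
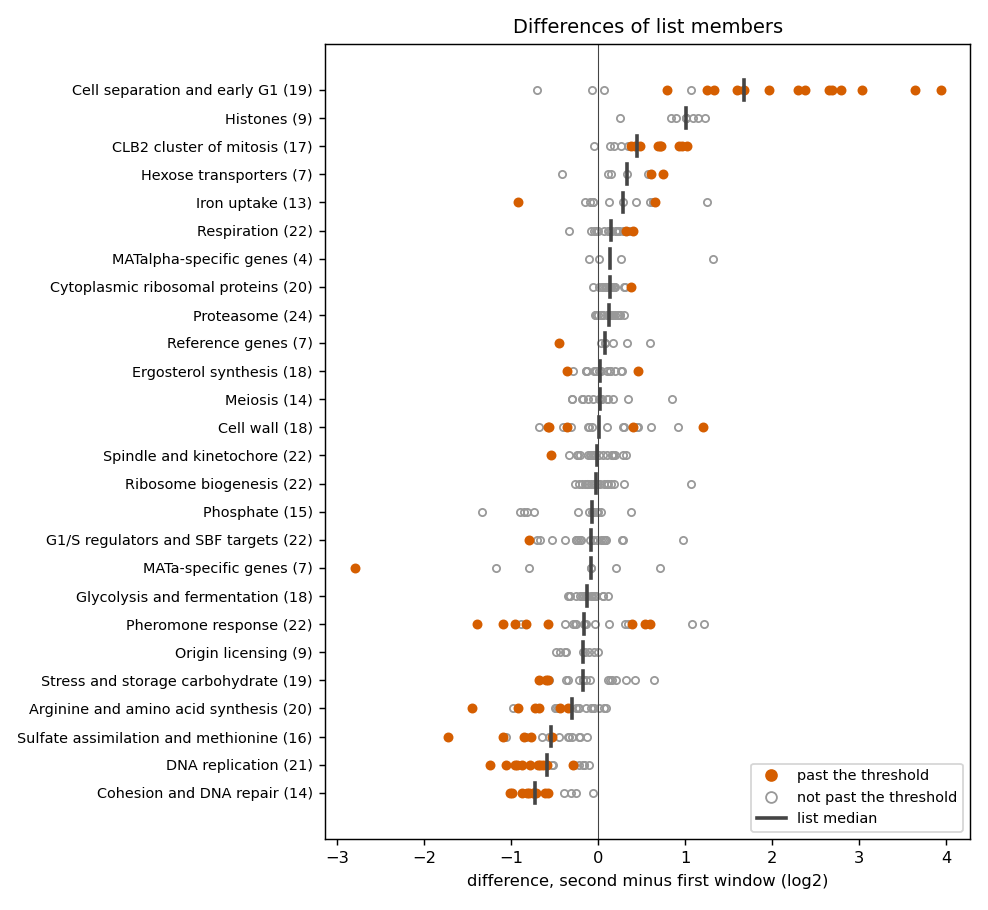
Difference between windows (x axis, second minus first, log2 units) for each member of 26 gene lists, ordered by the list median (black bar), with the number of measured genes in brackets. Filled points are past the threshold in limma and open points are not. Filled points lie right of 0 for the cell separation and early G1 list and the CLB2 cluster and left of 0 for the replication, cohesion, methionine and amino acid lists.

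The remaining lists had 3 or fewer called members in either direction. Over all frames, 3.45% passed as higher and 4.98% as lower, so single called genes are not read as results about their lists. The hexose transporter genes HXT3 and HXT5 were higher, 2 of 7. HXT3, a low-affinity glucose transporter, stood at -0.74, -0.70 and -0.68 and then at 0.23, 0.04 and -0.14, a difference of 0.75 ± 0.10 log2 units (limma adjusted p = 0.0138). Its second-window values were all above those of the first. In the stress and storage carbohydrate list, 3 of 19 were lower, namely the disaggregase gene HSP104 (-0.68 ± 0.12), the small heat shock protein gene HSP26 (-0.60 ± 0.12) and the glycogen debranching gene GDB1 (-0.58 ± 0.07). None of the 3 passed without 20 min or 85 min, and 1 passed without 90 min. In the cell wall list, the mannoprotein genes CWP1 and TIR1 were higher and SCW4, the glucan synthase gene GSC2 and KRE6 were lower, of 18, and 0 of these 3 passed without 20, 80 or 85 min. CWP1 went from -0.51, -0.56 and -0.33 to 0.48, 0.73 and 0.98, a difference of 1.20 ± 0.14 log2 units (adjusted p = 0.00877), with the second window wholly above the reference.

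The iron uptake list held 1 called gene each way, the siderophore gene FIT3 (0.66 ± 0.12) and the siderophore transporter gene SIT1 (-0.92 ± 0.12 log2 units). The ergosterol list did too, with ERG27 at 0.46 ± 0.07 and ERG26 at -0.36 ± 0.08, although both enzymes act in the same demethylation of sterols. In the respiration list, 2 of 22 were higher, the complex III genes COR1 and QCR2, with 0 when arrays were centred on their medians and 7 with quantile-normalized arrays. Of 22 spindle and kinetochore genes only STU1, a spindle protein gene, passed as lower (-0.54 ± 0.08), a share of 4.55% against 4.98% of all frames. Of 20 cytoplasmic ribosomal protein genes RPL28 alone passed as higher (0.38 ± 0.07), a share of 5% against 3.45% of all frames. Limma passed 0 of 15 phosphate, 18 glycolysis, 22 ribosome biogenesis and 24 proteasome genes. Small shifts below the threshold are described by the gaps alone. Wholly higher were 45% of the cytoplasmic ribosomal protein and 41.7% of the proteasome genes, against 17.4% of all frames, with median differences of 0.13 and 0.12 log2 units. Wholly lower were 33.3% of the phosphate and 33.3% of the glycolysis genes, against 17.3% of all frames. Among 7 genes commonly used as references, ACT1, the actin gene, was lower. It stood at 0.46, 0.35 and 0.52 and then at -0.01, -0.02 and 0.00, a difference of -0.45 ± 0.07 log2 units (limma adjusted p = 0.0185). The other 6 reference genes had differences between 0.04 and 0.60 and were not past the threshold. In all, 84 of 418 distinct genes measured in the 26 lists were called, against 8.43% of all frames in both directions together, and the lists were chosen with earlier results of these data known.

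Several of the largest differences lay outside these lists. NFG1, a negative regulator of filamentous growth, stood at -0.23, -0.41 and -0.28 and then at 1.47, 1.67 and 1.98. Of the 12 genes named as higher it alone was more than 1 log2 unit above the reference in all of the second window, and its difference was 2.01 ± 0.14 log2 units, 4.03-fold (limma adjusted p = 0.00125). SUN4, a cell wall protein of septation, went from -2.39, -2.20 and -1.81 to -0.36, -0.47 and -0.30, a difference of 1.76 ± 0.15. YIL102C, a frame of uncharacterised function, had a mean difference of 3.57 ± 0.25 log2 units, but it was 6.28 on the Cy3 arrays and 0.87 on the Cy5 arrays. It had 3 values at the limit, its date step was 6.89, and it was not past the threshold with the Cy5 arrays only or without values at the limit.

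On the lower side, YNL208W, a gene with no assigned function here, stood at 2.43, 2.15 and 1.80 and then at 0.15, 0.11 and 0.17, a difference of -1.98 ± 0.15 log2 units (limma adjusted p = 0.00187). DDR48, a stress-responsive gene, went from 1.83, 1.65 and 1.38 to -0.11, -0.09 and 0.01, a difference of -1.69 ± 0.12. YMR173W-A, a frame that is not in the gene table used here, went from 1.80, 1.81 and 1.23 to -0.36, -0.37 and -0.18, a difference of -1.91 ± 0.16. Its name is the systematic name of DDR48, YMR173W, with a suffix. Whether the frame overlaps DDR48 could not be checked, so both may report a single signal. SEO1, a putative permease, went from 2.40, 1.33 and 0.997 to -0.33, -0.10 and -0.02, a difference of -1.73 ± 0.34 (adjusted p = 0.0331), and was not past the threshold without 20, 80, 85 or 90 min. PRY1, a secreted sterol-binding protein, stood at 1.72, 1.57 and 1.27 and then at 0.36, -0.10 and -0.14. Its difference was -1.47 ± 0.17 log2 units, opposite in direction to that of PRY3, its neighbour in the order of genes, and it was not past the threshold without 20 min or without 85 min. YIL082W-A, a frame of the Ty3 retrotransposon, was far above the reference in both windows, at 5.38, 5.14 and 5.10 and then at 3.92, 3.57 and 3.52. Its difference was -1.54 ± 0.13 log2 units, and its copies are near-identical.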

How the data were processed

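Total RNA of 6 time points was compared on 12 two-colour arrays, 2 per time point with the dyes exchanged. The deposited values of the authors are log ratios, read here as log10 from their limit at -2 and 2. Their normalization is unstated, and neither intensities nor depth were used. After conversion to log2, each array was oriented by its dye label so that the sample is the numerator, and pairs were averaged. Of 6217 lines, 13 without the systematic name of an open reading frame were left out, and 5704 of 6204 frames took a symbol from the R64 gene table while 500 kept the deposited name. The 12 arrays had 107 missing values, and their 110 values at the limit were used. The windows were compared in R 4.3.3 with limma 3.58.1 (lmFit and eBayes) and Benjamini-Hochberg adjustment over all frames at 0.05, and the computation was tested on simulated data. Named genes are the 12 largest differences each way with the same sign in both dye orientations and no overlap, and up to 4 called members of each list. The windows, the 26 lists (420 distinct names) and the tests were chosen with earlier results of these data known, and no list was tested as a set. Alternatives were a block for the position in the window, linear time, single dyes, a random block for time points, median centring, quantile normalization, no limit values, no missing values, offsets of 60 and 70 min, and each time point left out. Values of some list members are not reported here. No sequences were used here. Gene coordinates were used to look for genes that overlap the named genes and for neighbours in the order of genes.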

Additional observations from a re-analysis of the deposited data

How the results depend on the processing

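All 17 alternatives left the sign of 521 of the 523 called genes unchanged. In the 6 that left out a time point the sign could not change, since no called gene overlapped between the windows. Of the 24 genes with the largest differences, 20 kept both sign and call in all 17. Of 1513 combinations of 89 followed genes and an alternative, 1220 kept direction and side of the threshold, 290 kept direction only, 1 newly passed, and 2 reversed: HHO1 was -0.14 with the second window 60 min after the first and -0.11 to 0.50 with 1 time point left out, lowest without 15 min. The number of higher genes, 214, was 129 with the position in the window as a block, 336 with linear time, 60 with the Cy3 arrays only and 464 with 12 unaveraged arrays, and 21 to 261 with 1 time point left out. The number of lower genes, 309, was 103 with the Cy3 arrays only, 600 with 12 unaveraged arrays and 22 to 377 with 1 time point left out. Deviations from the window mean at the same position correlated over all frames with r = 0.09, -0.08 and 0.06. This cannot show whether cell cycle genes pair by position. The median change over a window had the same sign in both for histones (2.55 and 0.69) and origin licensing (-0.93 and -0.65). It did not for DNA replication (0.05 and -0.29). The block shared 293 calls with the result without it. With the Cy3 arrays only and with quantile normalization in turn, called members were 2 and 2 of 11 for DNA replication, 3 and 1 of 10 for cohesion and repair, and 4 and 4 of 9 for the CLB2 cluster. With 1 time point left out they ranged from 0 to 9, from 0 to 11 and from 1 to 7, and from 9 to 14 of 14 for cell separation and early G1 genes. The cause was not tested. A filter on dim spots was not possible, because no intensities were used.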

Other observations

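The gene groups in this section were put together after the values were seen, so their counts are descriptions. Over all frames, 3.45% passed as higher and 4.98% as lower. Single genes of phospholipid and purine synthesis had some of the largest negative differences. OPI3, which methylates phosphatidylethanolamine to phosphatidylcholine, stood at 1.34, 1.23 and 1.03 at 15, 20 and 25 min and at -0.24, -0.60 and -0.40 at 80, 85 and 90 min, and INO1, the inositol phosphate synthase, at 1.47, 1.38 and 1.15 and then at -0.12, -0.21 and 0.04. Their differences were -1.61 ± 0.12 and -1.43 ± 0.11 log2 units (SE, n = 3 against 3 time points). The other 7 of 9 genes in that group were not past the threshold in limma, and the group median was -0.18. In purine synthesis 5 of 11 genes were lower, led by ADE17, which stood at 1.82, 1.74 and 1.34 and then at 0.19, 0.21 and 0.08, a difference of -1.47 ± 0.13. ADE1, ADE3, ADE5,7 and ADE6 followed at -0.70, -0.45, -0.41 and -0.33. The count was 1 without 20, 85 or 90 min, 2 without 80 min and 1 with the Cy3 arrays only.

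Frames of the Ty1 and Ty2 retrotransposons were lower in the second window in 14 of 15 cases, with a median difference of -1.02 log2 units. Their list mean was 1.70, 1.28 and 1.11 and then 0.31, 0.64 and 0.11. Copies are near-identical, so the 15 frames may report a single signal, and 0 or 1 were past the threshold without 20, 80, 85 or 90 min and 0 with the Cy3 arrays only. On the higher side, 6 of 13 genes of mRNA binding and export passed, with a median difference of 0.29. YRA1, an export adaptor, stood at -0.90, -0.86 and -0.84 and then at -0.20, -0.15 and 0.00, a difference of 0.75 ± 0.08, and HEK2, NAB2, NPL3, THO1 and YRA2 were the others. The count was 1 without 20 min or 85 min and 2 without 80 min or 90 min. A group of 67 genes was picked by symbols in the style of mitochondrial ribosomal proteins, which does not show that each is one. Of these, 13 were higher and 1 lower, against 3.45% and 4.98% of all frames. Wholly higher were 45, against 17.4% of all frames, and the median difference was 0.26 log2 units. The largest of those called was MRPL8 at 0.59 ± 0.09. The count was 0 without 20, 80 or 85 min, 1 without 90 min, 7 without 15 min or 25 min, 2 with the position in the window as a block and 29 with the second window 60 min after the first.

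The 36 genes that stayed past the threshold with each time point left out were 18 higher and 18 lower. Both DDR48 and YMR173W-A, which may report a single signal, were among the lower ones. Besides genes named in the report they held SFG1, a regulator of growth form, which stood at -1.73, -1.74 and -1.76 and then at -0.46, -0.59 and -0.62, a difference of 1.19 ± 0.07 log2 units. SNZ1, of vitamin B6 synthesis, stood at 1.44, 1.48 and 1.45 and then at 0.40, 0.35 and 0.27, a difference of -1.12 ± 0.07. PCL5, a cyclin of the Pho85 kinase, differed by -1.21 ± 0.10, the oligosaccharyltransferase gene OST4 by -1.23 ± 0.11, and the manganese transporter gene SMF1 by 0.80 ± 0.08 log2 units. These genes were picked after their values were seen.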
